A study of Mus musculus with 22 samples.

Results

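A set of 8 genes known from megakaryocytes and platelets, *Pf4*, *Gp1bb*, *Gp9*, *Gp6*, *Rgs18*, *P2rx1*, *Tuba8* and *Plek*, were followed across the steps by which endothelial cells of the mouse embryo turn into blood cells. They are 8 of the 24454 genes counted. Several were chosen by their read counts in these same libraries, because their reads first appear in CD44LowKitPos, so the levels of all 8 are given as a description without a test. Reads of 7 of the 8 were found in at least 1 library, and these 7 passed the filter on low counts that left 12949 genes.

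The 22 RNA-seq libraries were made by SMART-Seq2 from 25 cells each, sorted as VE-Cadherin-positive from the aorta-gonad-mesonephros (AGM) region of untreated wild-type C57BL/6 embryos. There were 10 libraries of CD44Neg endothelial cells (E9.5, 4; E10, 3; E11, 3) and 6 of CD44LowKitNeg endothelial cells (E9.5, 1; E10, 2; E11, 3). CD44LowKitPos cells were collected at E9.5 (1 library) and E10 (2 libraries), and CD44High cells at E11 (3 libraries). No stage holds both CD44LowKitPos and CD44High, so the difference between these populations and that between stages cannot be told apart. The labels do not say whether replicates came from separate embryos, and p-values then measure only the spread between libraries, which may be technical.

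Megakaryocytes shed platelets, which stop bleeding. A platelet binds von Willebrand factor on a damaged vessel wall through the GPIb-IX-V complex, made of the chains encoded by *Gp1ba*, *Gp1bb*, *Gp9* and *Gp5*, and binds collagen through glycoprotein VI (*Gp6*), which signals through the Fc receptor gamma chain (*Fcer1g*). Of the other members, *P2rx1* encodes an ATP-gated cation channel of the platelet surface, *Pf4* a CXC chemokine of the alpha granules, *Rgs18* a regulator that shortens G protein signals, *Plek* pleckstrin, the main platelet substrate of protein kinase C, and *Tuba8* an alpha-tubulin. GATA, ETS and RUNX factors are known regulators of megakaryocyte genes.

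The bases just upstream of 4 members are shown because these genes span the patterns found below: *Pf4* and *Gp9* had reads in CD44LowKitPos and CD44High, *P2rx1* was the member that was lower in CD44High, and *Gp6* had no read anywhere. Each is written 5′ to 3′ from RefSeq on GRCm38.p6 and ends just before the first annotated exon base or the RefSeq start. Capitals mark, on either strand, letters that GATA factors can bind (AGATAA, and likewise AGATAG, with the variants TGATAA and also TGATAG), that ETS factors can bind (AGGAAG, and its variant CGGAAG) and that RUNX factors can bind (TGTGGT).
Pf4 (chr5:90772185-90772434, plus strand): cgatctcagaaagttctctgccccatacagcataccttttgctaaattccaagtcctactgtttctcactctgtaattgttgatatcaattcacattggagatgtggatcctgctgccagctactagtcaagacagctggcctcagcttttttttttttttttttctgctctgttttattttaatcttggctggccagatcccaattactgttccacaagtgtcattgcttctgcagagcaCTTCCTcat
Gp9 (chr6:87777820-87778069, plus strand): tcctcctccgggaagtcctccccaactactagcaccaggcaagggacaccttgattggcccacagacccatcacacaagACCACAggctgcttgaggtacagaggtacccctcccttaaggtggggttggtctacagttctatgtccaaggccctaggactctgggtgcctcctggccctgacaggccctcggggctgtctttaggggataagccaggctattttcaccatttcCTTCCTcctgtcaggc
P2rx1 (chr11:72998895-72999102, plus strand): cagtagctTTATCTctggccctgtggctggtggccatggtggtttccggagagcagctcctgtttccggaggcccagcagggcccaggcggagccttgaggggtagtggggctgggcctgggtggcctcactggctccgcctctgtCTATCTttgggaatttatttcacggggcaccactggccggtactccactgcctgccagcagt
Gp6 (chr7:4397745-4397994, minus strand): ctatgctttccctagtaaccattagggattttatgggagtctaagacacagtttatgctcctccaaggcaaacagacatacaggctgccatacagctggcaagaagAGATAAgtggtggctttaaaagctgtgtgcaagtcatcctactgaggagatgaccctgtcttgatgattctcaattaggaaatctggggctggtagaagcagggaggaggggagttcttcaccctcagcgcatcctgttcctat
Promoters were found for 7 of the 8 members. In the 250 bases before the start, GATA letters were present in 3 of them (*Gp1bb*, *Gp6* and *P2rx1*, the last with 2 matches) and in 27.1% of all 27025 promoters. ETS letters were present in 4 (*Pf4*, *Gp9*, *Gp1bb* and *Tuba8*) and in 39.0% of all promoters, RUNX letters in *Gp9* alone and in 14.2%, and *Plek* held none of them. The matched letters did not overlap. *Gp6*, without a read, and *P2rx1*, with 319 to 760 reads per CD44LowKitPos library, thus both carry GATA letters.

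Between 3912350 and 8657546 reads were counted per library. Levels are given as normalized CPM, the counts scaled to the library size after TMM. Where no read was found, as many as 3 could have been missed by counting error alone, equal to 0.400 to 0.465 normalized CPM in CD44LowKitPos and 0.594 to 0.816 in CD44High. Among the sorting genes, *Kit* was at 230 ± 50.1 normalized CPM (SD, n = 3) in CD44LowKitPos and 46.9 ± 17.3 (n = 6) in CD44LowKitNeg. *Cdh5*, which encodes VE-Cadherin, was at 168 ± 81.5 in CD44LowKitPos but at 0 in all 3 CD44High libraries, although the gate was set on that protein. *Ptprc*, which encodes the blood cell marker CD45, was at 112, 94.2 and 29.4 normalized CPM in CD44LowKitPos replicates 17, 18 and 19 and at 434, 430 and 380 in CD44High replicates 20, 21 and 22, against at most 1 count in any of the 16 endothelial libraries. Its rise from CD44LowKitNeg to CD44LowKitPos had an adjusted p of 1.4e-07 in edgeR (quasi-likelihood test, p-values adjusted over all genes by Benjamini-Hochberg), the source of every adjusted p below. In a fit of the E9.5 and E10 libraries alone it was 0.0104, which missed the threshold of 0.01. *Cd44* was at 2.14 to 58.9 normalized CPM in CD44Neg and 158 to 349 in CD44LowKitNeg. It was at 223, 354 and 195 in CD44LowKitPos and at 340, 292 and 171 in CD44High. The RNA of *Cd44* thus overlapped between these last populations (log2 fold change 0.06, SE 0.62, adjusted p = 0.995), although the gates were set on low and high CD44 protein.

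Of the markers of megakaryocytes looked at here, some had reads in all CD44LowKitPos libraries and others had few or none there. *Itga2b*, which encodes the CD41 chain of the platelet fibrinogen receptor, was at 69.2, 37.6 and 13.7 normalized CPM in CD44LowKitPos. It also had reads in all 6 CD44LowKitNeg libraries, up to 13.4 normalized CPM, and the difference was not called (log2 fold change 2.40, SE 1.03, adjusted p = 0.131 in edgeR). *Itgb3*, which encodes the other chain of this receptor, was at 8.18 to 9.20 normalized CPM per kb of exon in CD44LowKitPos. It was at 0 to 2.71 in CD44LowKitNeg and at 0.637 to 2.40 in CD44High. Its rise from CD44LowKitNeg to CD44LowKitPos was not called (log2 fold change 2.83, SE 1.21, adjusted p = 0.126 in edgeR). Nor was that of the transcription factor gene *Gata1* (7.27, SE 1.84, adjusted p = 0.0292). No read of *Gp6*, *Gp5* or the platelet beta-tubulin *Tubb1* was found in the 3 CD44LowKitPos libraries, and *Treml1* had reads in 1 of them. *Gp5* was present in CD44High at 17.6, 1.33 and 7.07 normalized CPM, and *Treml1* at 20.8, 15.98 and 12.2. The genes of this paragraph and the other GPIb-IX-V chains were named after their values were seen, apart from *Gp6*.

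Of the members, 5, *Pf4*, *Rgs18*, *P2rx1*, *Tuba8* and *Plek*, had all 3 CD44LowKitPos libraries above all 16 endothelial libraries, as did 2.29% of all genes that passed the filter. The rule that chose the members used these libraries, so nothing is read from this count. In CD44LowKitPos, *Gp9* and *Gp1bb* each overlapped with 1 CD44LowKitNeg library from E11, and *Gp6* was at 0. Without the E11 libraries, all 7 detected members lay above the endothelial cells. In CD44High, 6 of the 8, all but *Gp9* and *Gp6*, lay above all endothelial libraries, as did 7.0% of all genes. In bulk samples, fewer cells of a type and less RNA per cell cannot be told apart, which holds for every level below.

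**Figure D1:**
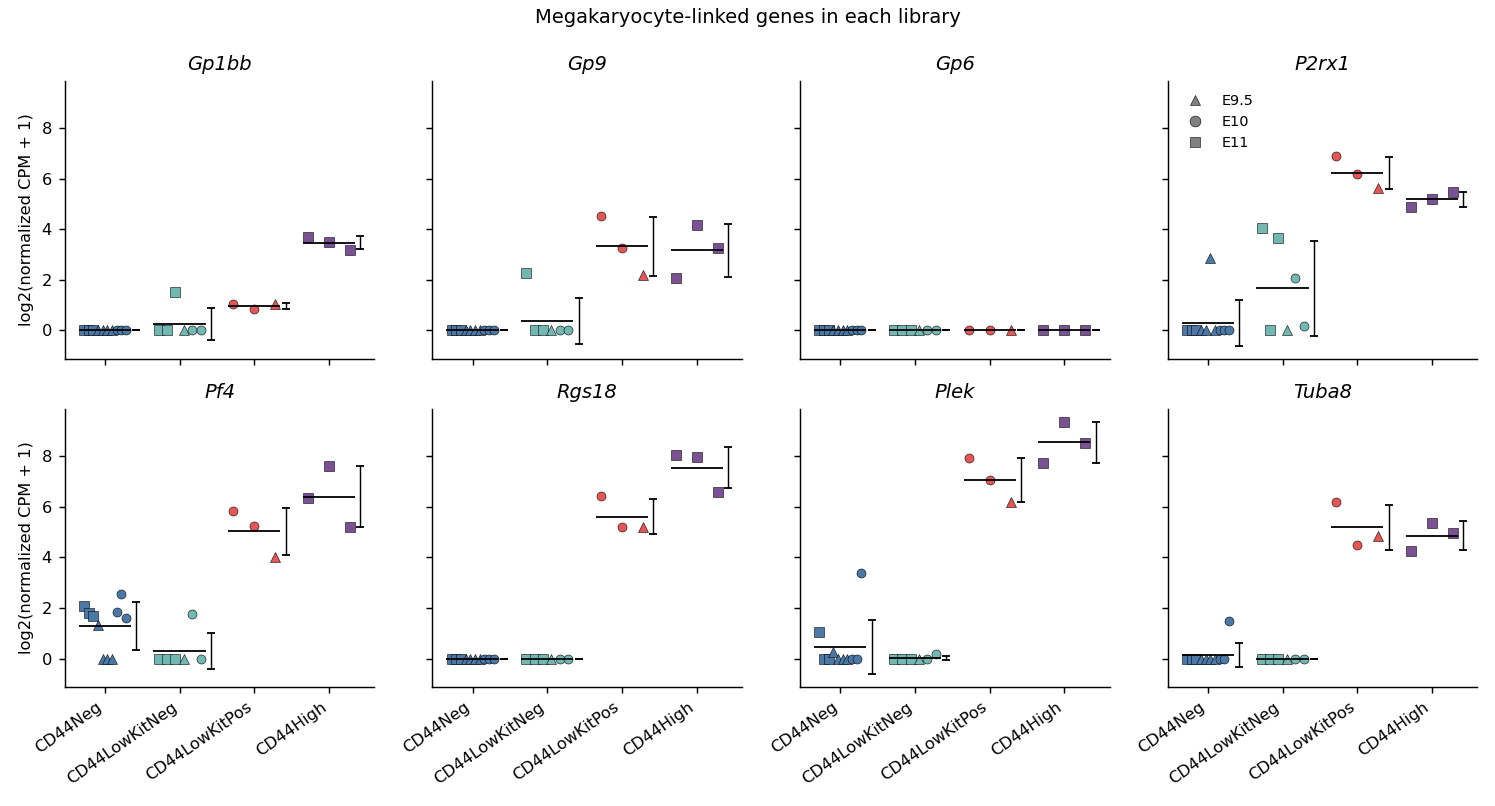
Levels of the 8 genes in each of the 22 libraries, as log2(normalized CPM + 1), with the 4 populations on the x axis. Each point is a library (triangle E9.5, circle E10, square E11), lines are means and bars 1 SD of the log values. All but *Gp6* appear in CD44LowKitPos and CD44High, *Gp6* lies at 0 throughout, and only *P2rx1* has all CD44High points below all CD44LowKitPos points.

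Of the GPIb-IX chains, *Gp9* overlapped between CD44LowKitPos and CD44High, *Gp1bb* was low before CD44High, and *Gp1ba*, which is no member, already had reads in CD44LowKitNeg. *Gp9* (glycoprotein IX; chr6:87778072-87779768) had 141, 64 and 24 counts in CD44LowKitPos replicates 17, 18 and 19, or 21.9, 8.54 and 3.62 normalized CPM. It had no read in the 10 CD44Neg libraries and in 5 of 6 CD44LowKitNeg libraries, and 28 counts (3.76 normalized CPM) in CD44LowKitNeg replicate 11. The E9.5 library thus lay just under that endothelial library and the E10 libraries above it. The mean of 11.3 ± 9.44 normalized CPM (SD, n = 3) was 18.1-fold that of CD44LowKitNeg and at least 18.7-fold the limit that 3 counts per library set in CD44Neg. The first ratio rests on CD44LowKitNeg replicate 11 alone, without which the mean of that population is 0. The CD44LowKitPos mean was 6.03 without replicate 17. In CD44High it was at 3.17, 16.8 and 8.71 normalized CPM, overlapping with CD44LowKitPos, and its mean of 9.55 was 5.64 without replicate 21.

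*Gp1bb* (the beta chain of glycoprotein Ib; chr16:18620317-18622403, minus strand) had only 7, 6 and 7 counts in CD44LowKitPos, a mean of 0.980 ± 0.157 normalized CPM (SD, n = 3). It reached 61, 39 and 30 counts in CD44High, or 10.2 ± 1.96 normalized CPM, which was 10.4-fold higher with no overlap. CD44LowKitNeg replicate 13 held 12 counts (1.86 normalized CPM), more than any CD44LowKitPos library. Of the exon bases annotated for *Gp1bb*, 91.1% also belong to *Sept5* on the same strand, so its reads may have been split or left out. *Sept5* itself had no read in CD44LowKitPos.

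The alpha chain gene *Gp1ba* was at 14.0 ± 6.72 normalized CPM (SD, n = 6) in CD44LowKitNeg and at 9.15, 16.8 and 2.56 in CD44LowKitPos, and it had reads in all 6 CD44LowKitNeg libraries (log2 fold change −0.56, SE 1.41, adjusted p = 0.851 in edgeR between these populations). It also had reads in 3 of 10 CD44Neg libraries, up to 5.49 normalized CPM in replicate 5. In CD44High it was at 4.19 ± 2.87 (SD, n = 3; −1.18, SE 1.62, adjusted p = 0.810 against CD44LowKitPos). The chains were not tested against each other.

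*Gp6* (chr7:4363965-4397744, minus strand) had no read in any of the 22 libraries. Its signalling partner *Fcer1g*, which many blood cells use, rose from 2.12 ± 3.82 normalized CPM (SD, n = 6) in CD44LowKitNeg to 82.7, 43.6 and 49.3 in CD44LowKitPos and stood at 454, 940 and 770 in CD44High. The log2 fold change from CD44LowKitNeg to CD44LowKitPos was 4.76 (SE 1.10, adjusted p = 0.00713), and when any 1 of the 22 libraries was dropped, the call was lost in 11 cases (adjusted p up to 0.044, without CD44LowKitPos replicate 17). It was also lost by DESeq2 and in the E9.5 and E10 fit, with an adjusted p of 0.00181 to 0.207 over all alternatives.

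*P2rx1* (chr11:72999103-73015200) had 760, 541 and 319 counts in CD44LowKitPos, or 118, 72.2 and 48.1 normalized CPM. In CD44High it was at 28.5, 35.9 and 43.5, below every CD44LowKitPos library, and the ratio of the means was 0.453. This was the only member lower in CD44High without overlap, against 12% of all genes that passed the filter. It was also the member with the most endothelial reads: CD44LowKitNeg replicates 11 and 13 held 116 and 75 counts (15.6 and 11.6 normalized CPM), replicate 15 held 19, and CD44Neg replicate 6 held 34. The median was 0 in CD44Neg and 1.66 normalized CPM in CD44LowKitNeg, and the mean of 79.4 ± 35.4 (SD, n = 3) in CD44LowKitPos was 15.6-fold that of CD44LowKitNeg, or 26.6-fold without CD44LowKitNeg replicate 11. Replicates 11 and 13 are from E11, a stage with no CD44LowKitPos library. At E10, the means were 95.02 normalized CPM in CD44LowKitPos and 1.66 in CD44LowKitNeg (n = 2 each), and at E9.5 the single libraries had 48.1 and 0. The ratio of 125 to the CD44Neg mean rests on CD44Neg replicate 6, the only library of that population with reads.

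Of the other ATP-gated channel genes, *P2rx4* was at 6.01 ± 3.38 normalized CPM (SD, n = 3) in CD44LowKitPos and 39.4 ± 26.7 in CD44High, and *P2rx7* at 0.931 ± 1.61 and 14.8 ± 8.79. *P2rx2*, named after its values were seen, had 29 counts in 1 CD44LowKitPos library and none in CD44LowKitNeg or CD44High. The differences between these genes and *P2rx1* were not tested. None of the 3 relatives tested was called between CD44LowKitPos and another population by edgeR or DESeq2. By edgeR's unadjusted p under 0.05, a different gene was higher in CD44LowKitPos against each endothelial population. Against CD44LowKitNeg it was *P2rx2* (log2 fold change 5.93, SE 2.24), which was at 0.45 (SE 2.07) against CD44Neg. Against CD44Neg it was *P2rx7* (4.53, SE 1.46), which was at −1.24 (SE 1.73) against CD44LowKitNeg.

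**Figure D2:**
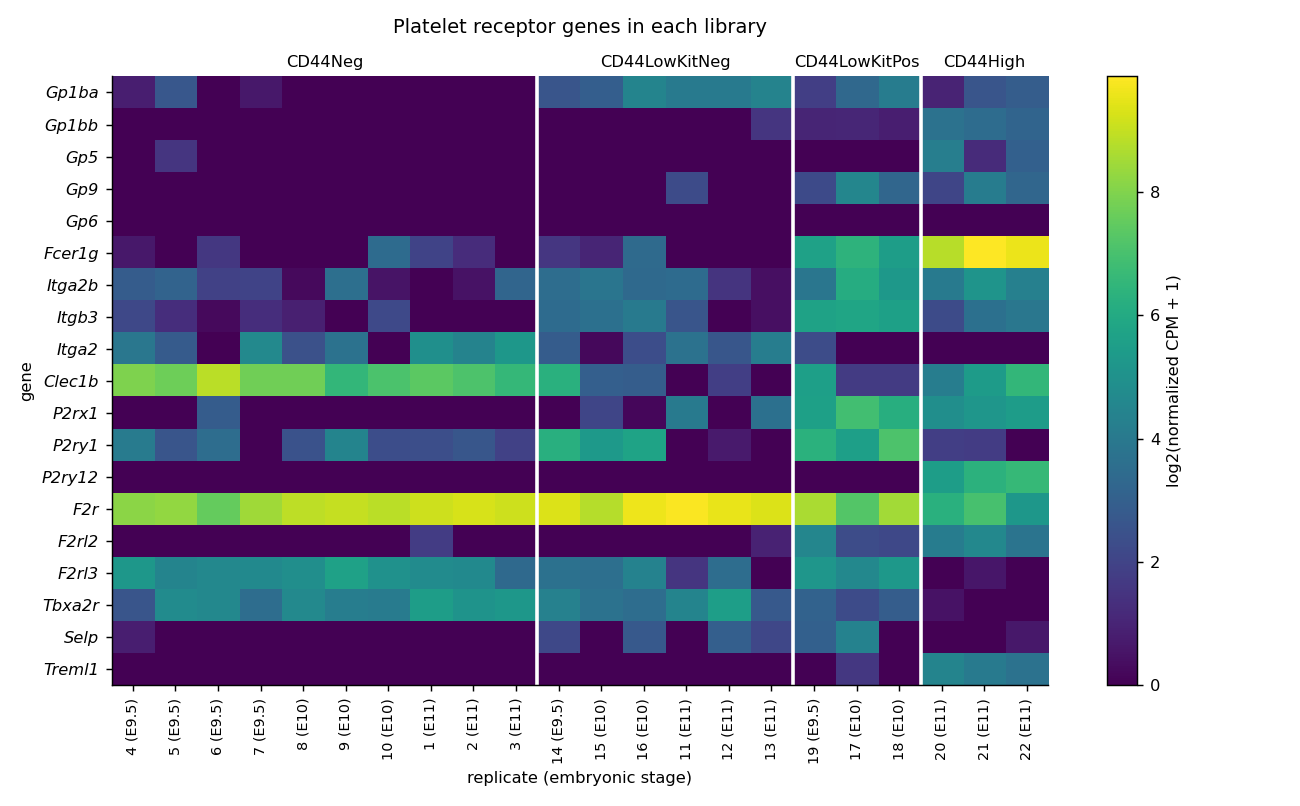
Platelet receptor genes (rows) in each library (columns, by population and stage), coloured by log2(normalized CPM + 1). *Gp6* is dark in all 22 columns, *P2ry12* and *Gp5* have colour mainly in CD44High, and *F2rl3*, *F2r* and *Clec1b* have colour in the endothelial populations.

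*Pf4* (platelet factor 4; chr5:90772435-90773383) was the one member with reads in most CD44Neg libraries: 7 of 10 held 8 to 22 counts, with a median of 2.09 and a highest value of 4.92 normalized CPM. In CD44LowKitNeg it was at 0 in 5 of 6 libraries, with 14 counts in replicate 15. CD44LowKitPos held 361, 278 and 100 counts, or 56.0, 37.1 and 15.1 normalized CPM, all above the endothelial libraries. The mean of 36.0 ± 20.5 (SD, n = 3) was 92.1-fold that of CD44LowKitNeg and 19.04-fold that of CD44Neg. The first ratio rests on CD44LowKitNeg replicate 15 alone, without which the mean of that population is 0. CD44High held 80.6, 196 and 36.2 normalized CPM, and its lowest library lay among those of CD44LowKitPos. The CD44High mean of 104 was 57.0 without replicate 21. Divided by exon length, *Pf4* had the highest level of the 8 genes in both populations, 50.0 ± 28.4 normalized CPM per kb in CD44LowKitPos and 144 ± 114 in CD44High (SD, n = 3 each), although spreads of this size do not separate it from the next members, *Plek* (33.3 ± 19.5) and *P2rx1* (30.2 ± 13.5) in CD44LowKitPos and *Rgs18* (99.6 ± 45.5) and *Plek* (91.8 ± 50.1) in CD44High.

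*Ppbp*, a neighbouring alpha granule chemokine gene, was at 36.6, 6.27 and 1.96 normalized CPM in CD44LowKitPos, at 0 in all 6 CD44LowKitNeg libraries, and at 3.37, 0.533 and 0 in CD44High. Its adjusted p for the rise was 0.0116 (edgeR) and missed the threshold of 0.01. *Pf4* and *Ppbp* thus had their means in opposite order between CD44LowKitPos and CD44High. Other CXC chemokines with over 10 normalized CPM in a population, *Cxcl2*, *Cxcl10*, *Cxcl12* and *Cxcl16*, were at 0 to 3.67 in the mean of CD44LowKitPos.

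*Rgs18* (chr1:144752683-144775435, minus strand) was the only detected member without any endothelial read. It had none in any of the 16 endothelial libraries, then 541, 271 and 239 counts in CD44LowKitPos (83.9, 36.2 and 36.0 normalized CPM) and 1335, 926 and 353 in CD44High (264, 247 and 96.0). The mean of 52.0 ± 27.6 normalized CPM (SD, n = 3) in CD44LowKitPos was at least 124-fold the limit of 3 counts per library in CD44LowKitNeg. Every CD44High library was above every CD44LowKitPos library, and the ratio of the means was 3.89. *Rgs18* and *Gp1bb* were the only members higher in CD44High without overlap, against 11.9% of all genes that passed the filter.

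Among the other RGS genes, *Rgs2* fell from 948 ± 201 normalized CPM (SD, n = 6) in CD44LowKitNeg to 299.8 ± 132 (n = 3) in CD44LowKitPos (log2 fold change −1.66, SE 0.40, adjusted p = 0.00861), and *Rgs3* from 121 ± 50.1 to 19.8 ± 8.54 (−2.61, SE 0.53, adjusted p = 0.00354) and further to 0.716 ± 0.671 in CD44High (−4.84, SE 0.73, adjusted p = 9.6e-05). The call of *Rgs2* was lost in 12 of 22 fits without 1 library (adjusted p up to 0.0816, without CD44LowKitPos replicate 17), and the first call of *Rgs3* without CD44LowKitPos replicate 17 (adjusted p = 0.0405) or 18. Both were also lost with stage as a covariate and with E9.5 and E10 libraries alone. *Rgs19* had means of 132 to 168 normalized CPM in the 4 populations, and *Rgs14* had 9.34 ± 5.75 in CD44LowKitPos (6.02 without replicate 17) and 10.8 ± 2.56 in CD44High (SD, n = 3 each). *Rgs1* had reads in 1 of 3 CD44LowKitPos libraries (14 counts) and was at 71.1 ± 46.1 in CD44High. *Rgs5* also had reads in 1 CD44LowKitPos library (5.43 normalized CPM), and in CD44High it was at 127, 46.3 and 0, so the mean of 57.8 was 23.2 without replicate 20. Of these RGS genes, *Rgs18* alone went from no read in CD44LowKitNeg to over 36 normalized CPM in every CD44LowKitPos library.

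*Plek* (chr11:16971206-17052381, minus strand) had the most reads of the 8 genes, with 1574, 991 and 473 counts in CD44LowKitPos (244, 132 and 71.3 normalized CPM) and 1073, 2462 and 1353 in CD44High (212, 656 and 368). CD44LowKitNeg held 1 count in 6 libraries, which gives a ratio of 6437 with a 95% counting interval of 1155 to 254349. In CD44Neg, replicate 10 held 42 counts and the others 0 to 4. The CD44High mean was 2.76-fold that of CD44LowKitPos, with 1 CD44High library among the CD44LowKitPos values. Its relative *Plek2* was at 12.99 ± 7.57 normalized CPM (SD, n = 6) in CD44LowKitNeg and 8.66 ± 1.26 (n = 3) in CD44LowKitPos, and *Plekho1* and *Plekho2* at 13.1 and 12.1 in the mean of CD44LowKitPos; none of the 3 was called by edgeR in any comparison with CD44LowKitPos. At an unadjusted p under 0.05, 1 was lower against CD44LowKitNeg, and 1 was higher and 1 lower against CD44Neg, where DESeq2 called 1 lower.

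*Tuba8* (chr6:121210696-121226854) had 466, 162 and 185 counts in CD44LowKitPos, or 72.3, 21.6 and 27.9 normalized CPM, and no read in the 6 CD44LowKitNeg libraries. Among CD44Neg libraries, replicate 10 alone held reads (8 counts). The mean of 40.6 ± 27.6 normalized CPM (SD, n = 3) was at least 96.9-fold the limit in CD44LowKitNeg, and it was 24.5 without replicate 17. CD44High was at 18.01, 40.2 and 29.9, overlapping with CD44LowKitPos. An antisense gene covers 16.3% of the exon bases of *Tuba8*, and since the strand setting of the counting was not given, reads of the pair cannot be told apart.

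*Tuba4a*, the other alpha-tubulin that was near 0 in endothelial cells, rose with *Tuba8*. It was at 74.9, 37.1 and 6.94 normalized CPM in CD44LowKitPos and at most 1.68 in CD44LowKitNeg (log2 fold change 6.51, SE 1.08, adjusted p = 7.7e-04), a call that was lost without CD44LowKitPos replicate 17 (adjusted p = 0.0107), by DESeq2 and with E9.5 and E10 libraries alone (adjusted p up to 0.0795 over all alternatives). In CD44High it was at 150, 169 and 92.8. Per kb of exon, *Tuba8* was at 17.9 ± 12.2 normalized CPM (SD, n = 3) and *Tuba4a* at 10.7 ± 9.20 in CD44LowKitPos, against 12.98 ± 4.91 and 37.0 ± 10.7 in CD44High. The broadly used *Tuba1b* was at 289 ± 106 per kb in CD44LowKitPos; it rose from CD44LowKitNeg (1.46, SE 0.30, adjusted p = 0.00334), a call that was lost without CD44LowKitPos replicate 17 (1.10, adjusted p = 0.0641) and with E9.5 and E10 libraries alone. *Tuba8* thus stayed far below the main alpha-tubulin. *Tuba1a*, *Tuba1b* and *Tuba1c* are near-identical copies, and their split of reads is uncertain.

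**Figure D3:**
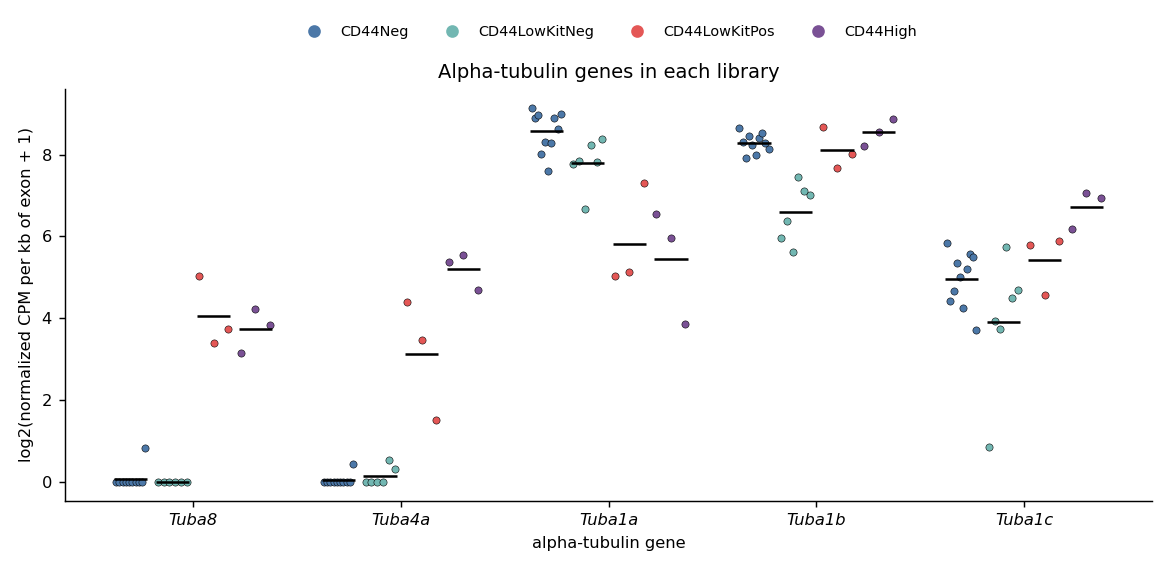
Alpha-tubulin genes in each library, as log2(normalized CPM per kb of exon + 1), with points for libraries coloured by population and lines for the means of these values. *Tuba8* and *Tuba4a* are at or near 0 in the endothelial libraries and present in the blood-forming ones, while *Tuba1a*, *Tuba1b* and *Tuba1c* have reads in all 4 populations.

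Within CD44LowKitPos, replicate 17 (E10) was the highest library for all 7 detected members. Replicate 19, the only one from E9.5, was the lowest for 5 and replicate 18 (E10) for 2. For *Gp1bb* the order rests on 7, 6 and 7 counts, and *Rgs18* was at 36.2 and 36.0 normalized CPM in replicates 18 and 19. The share of all genes with this order was not computed, so nothing is read from these counts. The ratio of the highest to the lowest library was 1.36 for *Gp1bb*, 6.04 for *Gp9* and 2.33 to 3.71 for the other 5. The summed level of the 8 genes was 597, 309 and 203 normalized CPM in replicates 17, 18 and 19. Replicate 17 was also the library with the least *Cdh5* (73.5 normalized CPM, against 217 and 213) and the lowest sum of 10 endothelial markers (598, against 1068 and 1743). The sum of 10 granulocyte and mast cell markers followed the order of the members, with 233, 114 and 71.6 normalized CPM in replicates 17, 18 and 19, and so did that of 13 macrophage markers, with 230, 209 and 168. The sum of 16 erythroid markers went in the reverse order, with 9.93, 23.9 and 29.2. The part of these cells in the members' levels was not tested. With 1 library at E9.5, stage and library cannot be told apart.

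The make-up of the summed level also changed between CD44LowKitPos and CD44High. *Plek* held the largest share in CD44LowKitPos, 35.1% to 42.8% of the sum, and 34.3% to 62.3% in CD44High. *P2rx1* held 19.7% to 23.7% in CD44LowKitPos and 2.99% to 7.37% in CD44High. *Tuba8* held 7.004% to 13.7% and 2.91% to 5.07%, *Gp9* 1.78% to 3.66% and 0.512% to 1.47%, and *Gp1bb* 0.182% to 0.520% and 0.865% to 1.95%. For these 4 genes the shares did not overlap between the populations, while those of *Plek*, *Rgs18* (11.7% to 17.7% and 16.3% to 42.7%) and *Pf4* (7.42% to 12.02% and 6.13% to 16.3%) did. Shares within a library do not depend on the scaling between libraries, but a share also falls when other members rise. By level, *Tuba8* (21.6 to 72.3 normalized CPM in CD44LowKitPos and 18.01 to 40.2 in CD44High) overlapped between the populations. So did *Gp9* (3.62 to 21.9 and 3.17 to 16.8), and the lower shares of both are thus not read as lower levels. Such shares were not computed for other genes, so nothing is read from the count of 4.

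To place the members among other platelet genes, 93 further genes of 4 lists were counted: receptors, granule contents and release, signalling and cytoskeleton, and transcription factors. Of these, 88 passed the filter, 2 had no read in any library, and no member was included. Between CD44LowKitPos and CD44LowKitNeg, 6 of the 88 rose and none fell (6.82%, against 4.26% called among all 12949 genes, 2.55% as higher and 1.71% as lower). The median log2 fold change was 0.47, and 0.53 with genes at 0 in a population set to their bound, against −0.02 over all genes tested. At an unadjusted p under 0.05 in edgeR, 26 were higher and 10 lower, and DESeq2 called 5 higher and 5 lower.

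Of these, *Gfi1b*, *F13a1*, *Fcer1g*, *Ptgs1* and *Vamp8* are described here. *Gfi1b*, a transcriptional repressor needed for megakaryocyte and erythroid cells, was at 73.5, 23.6 and 35.6 normalized CPM in CD44LowKitPos against 2 counts in 6 CD44LowKitNeg libraries (log2 fold change 9.32, SE 0.97, adjusted p = 9.7e-05; ratio 940 with a 95% counting interval of 259 to 7772), and it was called in all 22 fits without 1 library, though not with E9.5 and E10 libraries alone (adjusted p = 0.0223). *Ptgs1*, the cyclooxygenase of platelets, was at 290, 163 and 71.2 normalized CPM against 14.2 ± 15.3 (3.62, SE 0.86, adjusted p = 0.0084), and *Vamp8*, a granule fusion protein, at 192 ± 41.4 against 83.9 ± 28.2 (1.19, SE 0.28, adjusted p = 0.00758). These 2 calls were lost in 15 and 17 of the 22 fits (adjusted p up to 0.0764 and 0.0847, both without CD44LowKitPos replicate 17), and both under DESeq2's size factors. *F13a1*, the clotting factor XIII A chain, had no read in CD44LowKitNeg and only 78 in CD44LowKitPos, at least 8.74-fold the limit (adjusted p = 0.00355; 0.0147 without CD44LowKitPos replicate 18, and up to 0.0197 with stage as a covariate).

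These calls rest on few libraries. The number of programme genes called was 1 without CD44LowKitPos replicate 18, 2 without CD44LowKitPos replicate 17, CD44LowKitNeg replicate 11 or CD44High replicate 21, 3 without CD44LowKitNeg replicate 12 or 13 or CD44Neg replicate 5, and 4 to 8 without any other. With the libraries of E9.5 and E10 alone (3 of CD44LowKitPos against 3 of CD44LowKitNeg), it was 0 by edgeR, with 16 genes higher and 9 lower at an unadjusted p under 0.05, and 9 genes were called in the whole table.

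Against CD44Neg, 19 of the 88 genes were higher in CD44LowKitPos and none lower (21.6%, against 3.48% of all genes, 2.08% as higher and 1.41% as lower). At an unadjusted p under 0.05, 41 were higher and 11 lower, and DESeq2 called 16 higher and 4 lower. Named after their values were seen, they included *Itgb3*, the beta chain of the fibrinogen receptor (5.53, SE 1.08, adjusted p = 0.00212), *Nfe2*, a transcription factor of platelet release (7.32, SE 0.92, adjusted p = 2.1e-05), *Fermt3*, the integrin activator kindlin-3 (5.49, SE 0.78, adjusted p = 8.2e-05), and *Pla2g4a*, which frees arachidonic acid (6.28, SE 0.88, adjusted p = 7.5e-05). The count was 12 without CD44LowKitPos replicate 18. This comparison shares the CD44LowKitPos libraries with the one above, and the difference between both was not tested.

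Between CD44High and CD44LowKitPos, 10 of the 88 genes were called (11.4%, against 3.01% of all genes, 0.78% as higher and 2.23% as lower): 2 higher and 8 lower in CD44High. At an unadjusted p under 0.05 in edgeR, 13 were higher and 22 lower, and DESeq2 called 1 higher and 13 lower. The median log2 fold change was −0.56 (−0.02 over all genes). *P2ry12*, an ADP receptor of platelets that microglia and other macrophages also carry, was at 44.1, 80.1 and 97.7 normalized CPM in CD44High with no read elsewhere, at least 168-fold the limit (adjusted p = 0.00291; 0.0251 without CD44High replicate 22, and also lost without replicate 20 or 21, by DESeq2 and with stage as a covariate). *F13a1*, which macrophages also express, rose 76.1-fold to 279 ± 121 normalized CPM (SD, n = 3; log2 fold change 6.23, SE 0.95, adjusted p = 0.00308; 0.0168 without CD44High replicate 22, and also lost without CD44LowKitPos replicate 19 or CD44High replicate 21, by DESeq2 and with stage as a covariate).

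Of the 8 that fell, *Vwf*, stored in platelets and in the endothelium, was at 93.1 ± 13.8 normalized CPM (SD, n = 3) in CD44LowKitPos with no read in CD44High (at least 126-fold lower, adjusted p = 4.6e-05). *Esam*, an adhesion molecule of platelets and endothelial junctions, fell from 258 ± 27.9 to 5.80 ± 7.005 (−5.50, SE 0.76, adjusted p = 3.2e-05), and *Gng11*, a G protein gamma chain, from 243 ± 69.7 to 17.3 ± 6.96 (−3.81, SE 0.38, adjusted p = 3.3e-07). The thrombin receptor *F2rl3* had 2 counts in CD44High and 667 in CD44LowKitPos (ratio 202, 95% counting interval 55.8 to 1674, adjusted p = 8.1e-04). These 4 were called in all 22 fits without 1 library.

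*F2r*, another thrombin receptor gene, fell from 304 ± 134 to 80.4 ± 46.1 normalized CPM (SD, n = 3 each; −1.92, SE 0.44, adjusted p = 0.00748), *Mmrn1*, multimerin 1, from 236 ± 87.6 to 27.5 ± 26.7 (−3.10, SE 0.72, adjusted p = 0.0086), *Slc18a2*, a monoamine transporter, from 313 ± 123 to 31.7 ± 22.8 (−3.30, SE 0.71, adjusted p = 0.00433) and *Tbxa2r*, the thromboxane receptor, from 5.98 ± 2.04 to 0.132 ± 0.229 (adjusted p = 0.00277). Their calls were lost in 11, 13, 4 and 2 of the 22 fits without 1 library, among them in each case that without CD44High replicate 22, where 4 programme genes were called in all. The calls of *Mmrn1* and *Slc18a2* were also lost with stage as a covariate, and that of *F2r* under DESeq2's size factors. The thrombin receptor gene *F2rl2* was not called: it was at 3.88, 3.47 and 22.5 normalized CPM in CD44LowKitPos and 16.8, 23.4 and 12.8 in CD44High (0.83, SE 1.88, adjusted p = 0.909), and it had reads in 1 library of each endothelial population. No transcription factor of the list was called (edgeR); 2 were higher and 3 lower at an unadjusted p under 0.05, and DESeq2 called none.

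Genes of the 8 that fell also had reads in endothelial cells. In CD44LowKitNeg (n = 6), *Vwf* was at 735 ± 471 normalized CPM, *F2r* at 698 ± 160, *Esam* at 685 ± 332, *Slc18a2* at 430 ± 187 and *Gng11* at 299 ± 109. These 5 means lay above those of CD44LowKitPos. In CD44Neg, however, *Slc18a2* was at 55.7 normalized CPM, and its level in CD44LowKitPos was called higher (log2 fold change 2.49, SE 0.47, adjusted p = 0.00155 in edgeR). Against CD44Neg, the log2 fold change of CD44LowKitPos was 0.55 for *Vwf*, −0.51 for *F2r*, −1.30 for *Esam* and −0.98 for *Gng11*, none of them called. *Mmrn1* was at 399 ± 111 in CD44Neg (SD, n = 10) and 64.3 ± 50.2 in CD44LowKitNeg, *F2rl3* at 27.4 ± 10.2 and 9.17 ± 7.20, and *Tbxa2r* at 23.7 ± 11.97 and 19.1 ± 14.2. All 10 endothelial markers were called lower in CD44High than in CD44LowKitPos too (edgeR), and the part of endothelial RNA in the 8 falls was not tested.

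Between CD44High and CD44LowKitNeg, of the 88 genes 19 were higher and 14 lower, against 16% of all genes (7.79% higher and 8.17% lower).

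**Figure D4:**
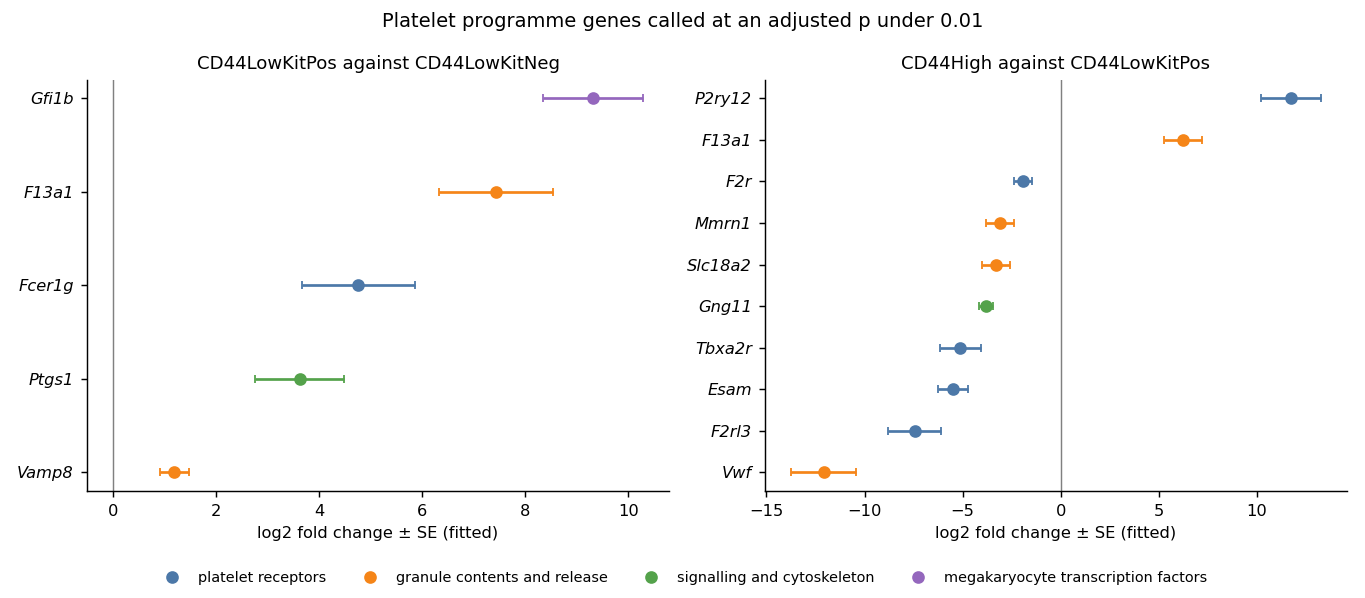
Fitted log2 fold changes (points, with SE as bars) of platelet programme genes called at an adjusted p under 0.01, coloured by list, for CD44LowKitPos against CD44LowKitNeg and for CD44High against CD44LowKitPos. All 5 genes shown for the first comparison lie to the right of 0, and 8 of the 10 of the second to the left; the fitted values of *F13a1* (first comparison), *P2ry12* and *Vwf*, which have no read in one population, depend on the prior count of the fit.

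The 10 genes whose profiles were most like that of the members over the 22 libraries were *Rnase6*, *Ptprc*, *Susd3*, *Treml2*, *Coro2a*, *Arhgap9*, *Aoah*, *Gfi1b*, *Ptpn22* and *Cytip* (Pearson's r of 0.974 to 0.987 with the members' mean standardized log2 CPM). The libraries fall into 16 endothelial ones near 0 and 6 with reads, so r mainly reflects this split. Within the 6 libraries of CD44LowKitPos and CD44High, r ranged from −0.135 (*Ptpn22*) to 0.868 (*Rnase6*). *Rnase6*, a secreted ribonuclease of blood cells, had no read in any endothelial library and was at 35.4 ± 26.4 normalized CPM (SD, n = 3) in CD44LowKitPos and 50.1 ± 25.9 in CD44High. All 10 were at or under 1.34 normalized CPM in every endothelial library and at least 6.94 in each of the 6 others. *Gfi1b* was the only one of them on the platelet lists.

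Macrophage and granulocyte markers were highest in CD44High. The sum of 13 macrophage markers was 1.21 to 18.5 normalized CPM in CD44Neg, 0 to 72.4 in CD44LowKitNeg, 168 to 230 in CD44LowKitPos and 3863 to 6410 in CD44High. In CD44LowKitPos, *Adgre1*, *C1qa*, *C1qb*, *C1qc*, *Timd4*, *Aif1* and *Cd14* were at 0, and *Lyz2* (183 ± 34.2 normalized CPM, SD, n = 3) made up most of the sum. The sum of 10 granulocyte and mast cell markers was 0 to 6.49 in CD44Neg, 0 to 4.73 in CD44LowKitNeg, 71.6 to 233 in CD44LowKitPos, mostly from *Mpo* (96.3 ± 68.6) and *Prtn3* (41.0 ± 17.2), and 1027 to 7941 in CD44High. Myeloid markers were thus higher in the same CD44LowKitPos libraries as the members. Of the 15 markers of both lists that were tested, 3, named after their values were seen, were called higher in CD44LowKitPos than in CD44LowKitNeg (edgeR). *Mpo*, the granule peroxidase, was 0.642 ± 1.41 in CD44LowKitNeg (log2 fold change 7.18, SE 1.19, adjusted p = 7.7e-04), and *Prtn3*, a granule protease, 0.594 ± 0.988 (6.12, SE 1.05, adjusted p = 0.00272). *Csf1r*, the receptor of macrophage growth factors, had 135 counts against 1 (ratio 286, 95% counting interval 50.5 to 11382, adjusted p = 1.9e-04). The call of *Csf1r* held in every alternative that tested it, that of *Mpo* was lost by DESeq2 and with E9.5 and E10 libraries alone (adjusted p up to 0.0551), and that of *Prtn3* by both and without CD44LowKitPos replicate 17 (adjusted p = 0.0212). The erythroid sum of 16 markers was 2.61 to 23.7 in CD44Neg, 21.5 to 61.3 in CD44LowKitNeg, 9.93 to 29.2 in CD44LowKitPos and 58.8 to 596 in CD44High, so that CD44LowKitNeg overlapped with both blood-forming populations. The adult globin genes, near-identical copies, were listed at 0 in all libraries, and *Slc4a1*, *Ermap* and *Rhag* were at 0 in CD44LowKitPos. The 10 endothelial markers went the other way, from 598 to 1743 in CD44LowKitPos to 15.8 to 61.8 in CD44High. The part of these cells in the levels of the members and of *Fcer1g*, *P2ry12* and *F13a1*, in CD44LowKitPos and in CD44High, was not tested.

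**Figure D5:**
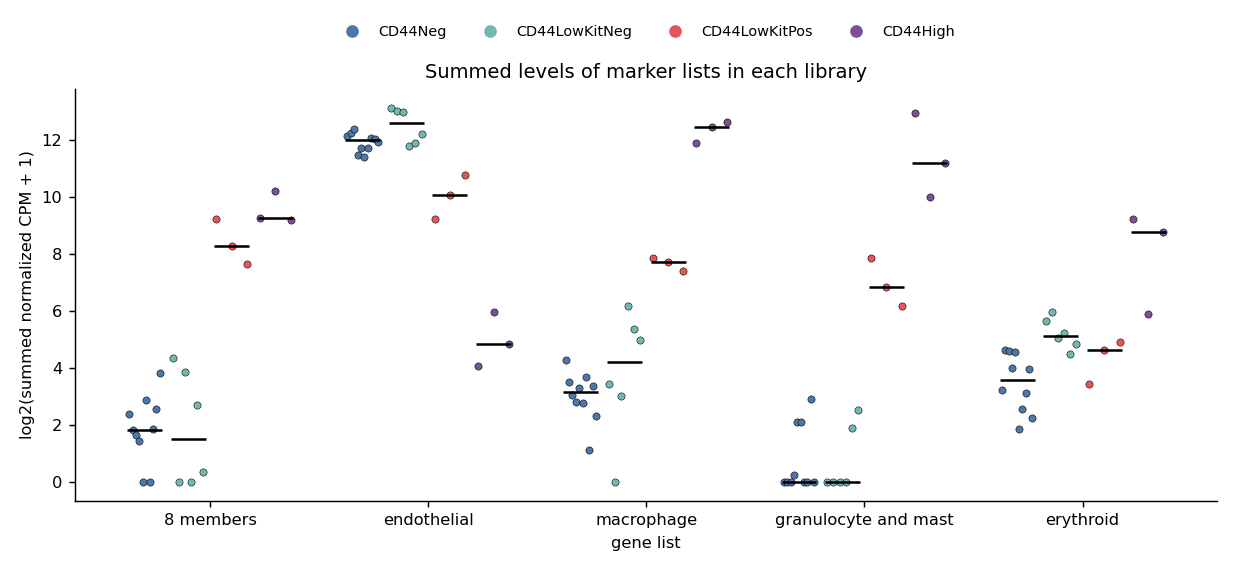
Summed normalized CPM of the 8 members and of 4 lists of cell type markers in each library, as log2(sum + 1), with points coloured by population and lines for the medians. CD44LowKitPos lies between the endothelial populations and CD44High for the endothelial, macrophage and granulocyte lists, and within the endothelial range for the erythroid list.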

How the data were processed

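Per the labels and the study's methods, RNA of 25 sorted cells per library was amplified by SMART-Seq2, and the authors clipped adaptors with FASTX, mapped reads with RNA STAR and deposited raw gene counts from htseq-count (FastQC, HTSeq and the build mm10 are named in the submitters' processing notes). The annotation, the strand setting and the handling of shared reads were not given in the sources used here. No column was left without a sample.

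All 22 libraries entered 1 fit with population as the only factor (edgeR 4.0.16, R 4.3.3): filterByExpr with a minimum count of 10 and a minimum total of 15, TMM scaling and the quasi-likelihood test with Benjamini-Hochberg adjustment over 12949 genes. The threshold for a call was an adjusted p under 0.01 (two-sided). DESeq2 1.42.0, its size factors, no filter, stage as a covariate, E9.5 and E10 libraries alone, counts thinned to the smallest library and each library left out were the alternatives. SE was derived from the F statistic, and errors of levels are SD. Counting intervals are exact (95%). For profiles, log2 CPM values were taken (prior count 2). Exon lengths and positions came from GENCODE vM21 (GRCm38), which may differ from the authors' annotation. The fits were tested on simulated data. In 20 pairs sharing a population and a stage, chi-square divided by its degrees of freedom was 17.0 to 85.2, so all 22 were kept as separate libraries.

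The members and gene lists were chosen with earlier results of these data known. Named were all members, the called genes of the 4 platelet lists (the 4 largest rises and falls of a list and comparison), relatives above 10 normalized CPM in a population, the 10 genes with the most similar profiles, and the sorting genes. A single called gene of these lists is counted but not reported here. The single-cell data of the study were not analysed here.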

Additional observations from a re-analysis of the deposited data

Results flagged for a closer look

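In each population of 6 or 10 libraries, single libraries stood apart from the others in the levels of the members, in 9 of the 18 sets of values looked at; chance alone marks about 1 in 20, and in genes near 0 a single library with reads is enough. In CD44LowKitNeg these were *Pf4* in replicate 15 (2.35 normalized CPM), *Gp1bb* in replicate 13 (1.86), *Gp9* in replicate 11 (3.76) and *Plek* in replicate 16 (0.135), each with the other 5 libraries at 0. *Ptprc* was at 0.129 normalized CPM in CD44LowKitNeg replicate 12, again against 0 in the others. In CD44Neg, *P2rx1* was at 6.33 normalized CPM in replicate 6 and *Tuba8* at 1.78 in replicate 10, with the other 9 libraries at 0. *Plek* was at 9.37 normalized CPM in CD44Neg replicate 10, against at most 1.06 in the others, and the sum of the 8 members reached 13.2 in that same library, against at most 6.33.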

How the results depend on the processing

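No paired analysis was run. Replicate numbers run on over all libraries, and the labels do not say whether populations of a stage came from the same embryos, so pairing is unknown. Of the members, 5 to 7 lay above all endothelial libraries under every alternative run on their levels (5 to 6 without 1 library). Without 1 library, the mean level of *Gp9* in CD44LowKitPos was 6.03 to 15 normalized CPM, that of *Tuba8* there 24.5 to 49.3, that of *Pf4* in CD44High 57.0 to 133 and that of *Gp9* there 5.64 to 12.08. For CD44LowKitPos against CD44LowKitNeg, 552 genes were called, 1262 by DESeq2 (Wald test), 366 after adding stage to the model, 9 with E9.5 and E10 libraries alone and 65 to 687 without 1 library; the platelet programme gave 6, 10, 5, 0 and 1 to 8. DESeq2's size factors turned the balance of higher and lower genes from 330 and 222 to 218 and 273 and moved the median of all genes from −0.02 to −0.16 (log2). Leaving out the E9.5 libraries of both CD44Low populations, chosen after seeing the data, gave 678 genes (233 higher) and 6 programme genes (4 higher). Against CD44Neg, 451 genes were called, 824 by DESeq2, 288 with E9.5 and E10 alone and 159 to 630 without 1 library; the programme count of 19 was 12 to 20. For CD44High against CD44LowKitPos, 390 genes were called, 715 by DESeq2 and 251 to 408 without 1 library; the programme count of 10 was 6 without those E9.5 libraries and 4 to 12 without 1 library. For CD44High against CD44LowKitNeg the 2067 genes became 1334 to 2176 without 1 library. No named call turned its direction. The cause of these differences was not tested, other than that fits on fewer libraries have fewer values per gene. At 3 libraries per population and 25 cells each, members with few reads, *Gp1bb* above all, are limited by counting, and an absent read, as for *Gp6*, allows up to 0.465 normalized CPM in a CD44LowKitPos library.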
